A study of Mus musculus with 16 samples.

Results

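Cytotoxic lymphocytes kill target cells, and 36 genes of their equipment were followed in mouse mammary tumours from animals given an antibody against PD-1 or an isotype control. The genes were a set list: the chains of the CD8 coreceptor, granule proteins, effector cytokines, transcription factors and cytokine receptors. Receptors shared by T and natural killer (NK) cells, and a group called NK lineage receptors, completed it. That last group also holds the adaptor gene Sh2d1b1 and the integrin gene Itga2, which is not particular to NK cells. Reads of the transcripts of each gene were summed, which gave values for 36 of 36 among 47311 genes. A filter on low counts kept 16154 genes for testing, 35 of them on the list. Zfp683, encoding the tissue-residency factor Hobit, did not pass it.

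The tumours grew from E0771-luciferase cells, a C57BL/6 mammary cancer line with a luciferase reporter. Female C57BL/6J mice were on a high-fat diet (60% of energy) between 8 and 26 weeks of age and received 250000 cells in 25% matrigel in mammary gland 4. From day 3 the treated animals were given 200 ug of anti-PD-1 and the controls 200 ug of IgG2a by intraperitoneal injection, every 3 days until day 21. There were 8 tumours in each group, each with its own animal number, so all comparisons are over separate animals, and every animal of both groups was on the high-fat diet and carried the same transplanted line. Each library held 59036535 to 82591064 estimated reads.

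CD8 T cells recognise peptides on class I molecules with the help of the CD8 chains, whereas NK cells read the presence or loss of class I and of stress ligands through receptors encoded in the NK gene complex and the natural cytotoxicity receptor NKp46. Both release perforin, which opens the target membrane, and granzymes, which cleave proteins inside the target, and both secrete interferon gamma. PD-1 is an inhibitory receptor of activated T cells, and its blockade is used to release CD8 T cells in tumours. The T-box factors T-bet and Eomes, with RUNX proteins, are known to drive these genes.

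Granule genes are known targets of T-box and RUNX factors. For 6 genes of the list, granule genes and others, the 250 bases upstream of the RefSeq transcription start are printed. They are on GRCm38.p6, written 5′ to 3′ on the gene's strand, with matches to the T-box core GTGTGA and the RUNX core TGTGGT, or their reverse complements TCACAC and ACCACA, in capitals. No T-box match overlaps a RUNX match in these windows. Nkg7, Gzmb and Prf1 encode granule proteins, Ncr1 encodes NKp46, Klra4 encodes an NK receptor of the Ly49 family, and Il18rap encodes a cytokine receptor chain.
Nkg7, chr7:43436888-43437137, plus strand: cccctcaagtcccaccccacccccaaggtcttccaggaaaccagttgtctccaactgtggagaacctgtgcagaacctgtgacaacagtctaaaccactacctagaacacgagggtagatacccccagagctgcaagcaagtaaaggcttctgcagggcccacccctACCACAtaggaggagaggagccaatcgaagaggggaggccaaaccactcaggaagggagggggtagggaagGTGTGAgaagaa
Gzmb, chr14:56262335-56262584, minus strand: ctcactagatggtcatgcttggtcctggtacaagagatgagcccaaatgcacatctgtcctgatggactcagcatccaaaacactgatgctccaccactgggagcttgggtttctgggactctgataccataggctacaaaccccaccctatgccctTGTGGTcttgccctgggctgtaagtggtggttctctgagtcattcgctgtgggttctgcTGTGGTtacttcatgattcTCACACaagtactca
Ncr1, chr7:4337474-4337723, plus strand: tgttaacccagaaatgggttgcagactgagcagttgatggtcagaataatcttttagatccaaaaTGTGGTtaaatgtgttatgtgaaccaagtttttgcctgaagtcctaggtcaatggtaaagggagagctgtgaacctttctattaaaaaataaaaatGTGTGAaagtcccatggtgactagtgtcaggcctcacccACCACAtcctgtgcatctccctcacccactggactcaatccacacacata
Prf1, chr10:61297586-61297835, plus strand: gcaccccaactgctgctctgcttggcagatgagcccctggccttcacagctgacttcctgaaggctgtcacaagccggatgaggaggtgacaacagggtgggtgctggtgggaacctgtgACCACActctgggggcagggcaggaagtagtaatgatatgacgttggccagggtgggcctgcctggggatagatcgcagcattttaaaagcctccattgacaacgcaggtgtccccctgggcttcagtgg
Klra4, chr6:130067272-130067521, minus strand: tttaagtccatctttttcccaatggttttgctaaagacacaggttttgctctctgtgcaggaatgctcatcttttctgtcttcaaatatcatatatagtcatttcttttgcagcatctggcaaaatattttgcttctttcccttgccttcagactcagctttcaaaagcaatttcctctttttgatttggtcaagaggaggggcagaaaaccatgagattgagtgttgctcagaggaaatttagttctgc
Il18rap, chr1:40515112-40515361, plus strand: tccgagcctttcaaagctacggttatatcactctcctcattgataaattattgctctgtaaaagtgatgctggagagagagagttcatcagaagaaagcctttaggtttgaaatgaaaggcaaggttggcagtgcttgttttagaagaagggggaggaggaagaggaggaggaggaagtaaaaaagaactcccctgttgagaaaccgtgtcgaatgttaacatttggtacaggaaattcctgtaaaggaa

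The windows of Gzmb and Ncr1 each hold 1 T-box and 2 RUNX matches, that of Nkg7 holds 1 of each, that of Prf1 holds 1 RUNX match, and those of Klra4 and Il18rap hold neither motif. RefSeq windows were found for 29 of the 36 genes, 37 windows in all. The T-box core was in 11 of the 37 windows (29.7%), belonging to 9 genes, against 12.3% of 32851 mouse windows of the same length. The RUNX core was in 17 (45.9%), belonging to 14 genes, against 14% of all windows. Neither motif was found for 13 of the 29 genes, among them Cd8a, Ifng, Fasl, Eomes, Tbx21, Klra7 and Klra8. Some genes have several windows, which can overlap, and no binding was measured.

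Per length, the list was low in these whole tumours. The mean levels of the 36 genes over the 16 tumours added up to 123 TPM, a unit that scales reads by transcript length and library total. The highest were Gzmb, encoding granzyme B, at 15.1 ± 7.62 TPM, and Il18rap, the accessory chain of the interleukin-18 receptor, at 15.1 ± 7.01 TPM (SD, n = 16). Serpinb9, an intracellular inhibitor of granzyme B, followed at 14.5 ± 4.47 TPM and the granule membrane protein gene Nkg7 at 12 ± 7.14 TPM. The next were Klra4 at 8.56 ± 3.15, Klrk1 at 7.84 ± 3.43, Klrd1 at 6.56 ± 3.95, Gzma at 5.04 ± 2.81, Cst7 at 4.17 ± 1.86 and Prf1 at 3.93 ± 1.75 TPM (SD, n = 16). Neighbours in this order differed by less than the larger of their SDs. Cd8a averaged 3.29 ± 1.97 TPM and Cd8b1 2.52 ± 1.78 TPM, while the NK genes Ncr1 and Klrb1c averaged 0.760 ± 0.711 and 0.787 ± 0.514 TPM. The lowest were Itga2 at 0.141 ± 0.118 TPM and Zfp683 at 0.0811 ± 0.0731 TPM, with no read for Zfp683 in 4 tumours.

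No gene of the list passed the test between anti-PD-1 and IgG2a tumours. EdgeR's quasi-likelihood test called 0 of the 35 at a Benjamini-Hochberg adjusted p of 0.05, where it called 0 of all 16154 genes (0%). At an unadjusted p under 0.05 there were 0 of the 35, where 11.4% of all genes lay there, 3.47% with a higher and 7.9% with a lower estimate. The estimate was higher under anti-PD-1 for 28 genes and lower for 7, where 43.1% of all genes had a higher estimate, and the median log2 fold change was 0.35 on the list and -0.05 over all genes. The 7 lower ones were Prf1, Serpinb9, Il12rb2, Il18rap, Il18r1, Klra9 and Itga2. All 35 intervals (95%) held 0, and 26 of them also held a log2 fold change of 1, so a doubling under anti-PD-1 was within the error for most of the list. A log2 fold change of -1 was inside 5 intervals. In bulk RNA, fewer cells of a type and less RNA per cell cannot be told apart.

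The count of higher estimates moved with anti-PD-1 tumour 5, which held the highest value of its group for many of the genes. Without that tumour 22 of 35 estimates were higher, the median log2 fold change was 0.11, and 23 of the 35 estimates moved by more than 1.5 times or turned. An earlier analysis of these data set apart 3 tumours, IgG2a 7 with adipocyte and erythroid genes high, IgG2a 3 with skeletal muscle genes high, and anti-PD-1 6 with 38934 transcripts detected, where the other 15 had 47952 to 55427. Without these 3, 29 of 35 estimates were higher, where 53.3% of all genes were, and the median was 0.27.

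**Figure D1:**
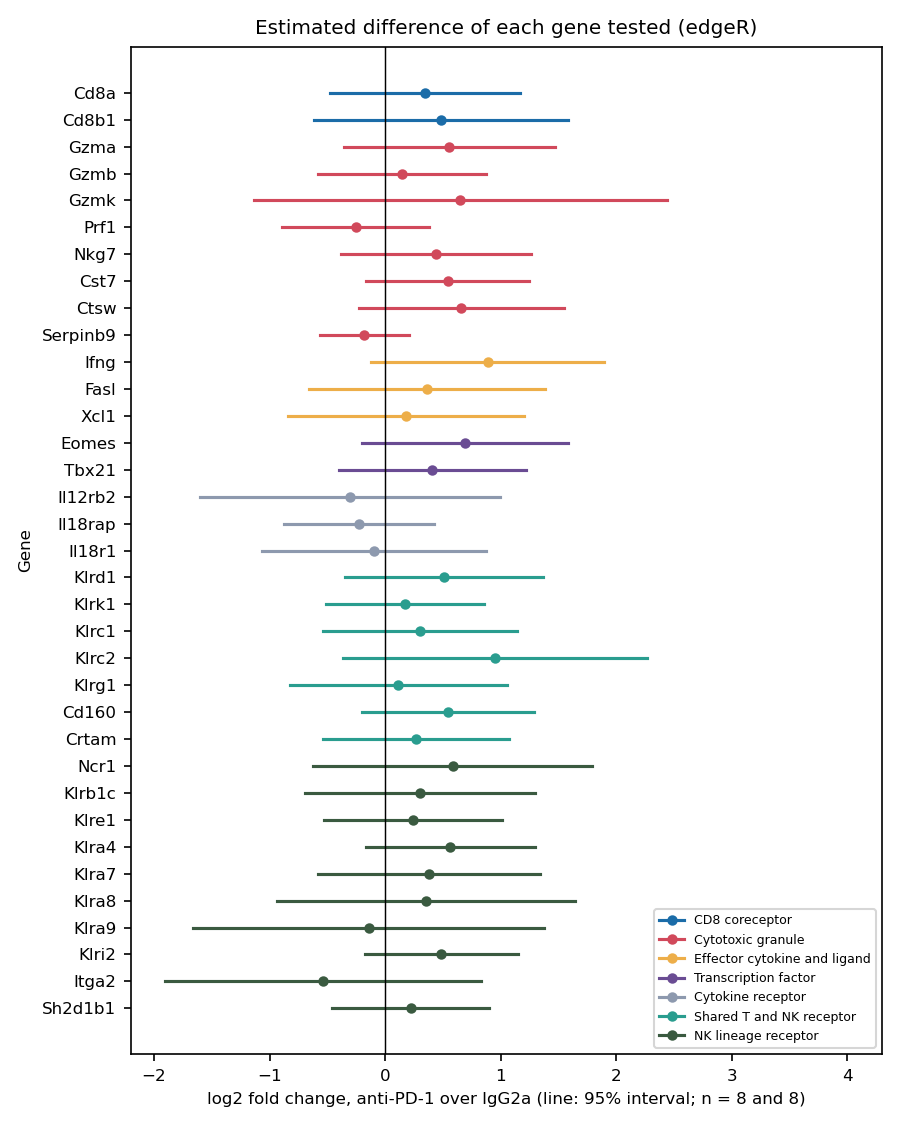
Log2 fold change of each gene tested, anti-PD-1 over IgG2a (x axis), with its 95% interval, from edgeR's fit of 8 anti-PD-1 and 8 IgG2a tumours; colours give the gene group. All 35 lines cross 0, and 28 of the 35 points lie right of it.

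The CD8 coreceptor genes mark the cytotoxic T cell arm. Cd8a (ENSMUSG00000053977, chromosome 6, 71373427 to 71379173 on the plus strand of GRCm38) had a lowest, median and highest value of 2.19, 5.66 and 16.3 CPM (reads scaled to the library total with TMM factors) under anti-PD-1, against 2.37, 6.00 and 10.5 CPM under IgG2a. Cd8b1, its partner chain on the same chromosome at 71322788 to 71337494, had 0.271, 3.03 and 8.05 CPM under anti-PD-1, against 0.515, 2.47 and 4.71 CPM under IgG2a. The groups overlapped throughout: anti-PD-1 tumours 5 and 1 were the highest for Cd8a of all 16, and anti-PD-1 tumour 2 was the lowest for both chains. The log2 fold changes were 0.35 ± 0.39 (SE, interval -0.48 to 1.17) for Cd8a, with 3 of 8 anti-PD-1 tumours above the IgG2a median, and 0.48 ± 0.52 (SE, interval -0.62 to 1.58) for Cd8b1, with 5 of 8. Without anti-PD-1 5 they were 0.10 and 0.15. Both adjusted p-values from edgeR were far from the threshold, at 0.668 and 0.652. Of the Cd8a TPM, 37.8% was assigned to a transcript with a retained intron, Cd8a-203, so part of the gene's reads need not encode the protein. This limit was not particular to Cd8a. Of the Il18rap TPM, 21.4% was on a retained-intron transcript, Il18rap-203, and of the Klre1 TPM, 40.8% on Klre1-202, annotated for nonsense-mediated decay.

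The granule genes split by direction of estimate, 6 higher and 2 lower of 8, with a median of 0.49. Gzmb (chromosome 14, 56258838 to 56262260, minus strand) had 7.99, 15.4 and 30.2 CPM as lowest, median and highest under anti-PD-1, against 4.16, 15.3 and 30.7 CPM under IgG2a. The highest tumours of both groups, anti-PD-1 5 and IgG2a 1, were alike, and the medians nearly coincided. Its log2 fold change was 0.14 ± 0.34 (SE, adjusted p = 0.854 by edgeR), and it turned to -0.04 without anti-PD-1 5 and to -0.08 without the 3 tumours set apart. Prf1, encoding perforin (chromosome 10, 61297833 to 61304680, plus strand), had 2.29, 5.29 and 8.08 CPM under anti-PD-1, against 2.45, 7.49 and 9.92 CPM under IgG2a. Its range was similar in both groups, but 2 of 8 anti-PD-1 tumours lay above the IgG2a median, and the log2 fold change was -0.25 ± 0.30 (SE, adjusted p = 0.684 by edgeR). Gzma, encoding the tryptase-like granzyme A, had 1.20, 3.25 and 5.43 CPM under anti-PD-1, against 0.641, 2.09 and 5.07 CPM under IgG2a. Anti-PD-1 tumours 5, 6 and 8 and IgG2a 1 were the high ones, and 6 of 8 anti-PD-1 tumours lay above the IgG2a median, and the log2 fold change was 0.56 ± 0.43 (SE, edgeR adjusted p = 0.536).

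Among the other granule genes, Nkg7 ran between 2.21 and 15 CPM under anti-PD-1 with a median of 6.73, against 2.83 to 9.93 with a median of 5.15 under IgG2a. Cst7, encoding the granule protease inhibitor cystatin F, had a median of 2.95 CPM (1.64 to 5.46) under anti-PD-1, against 2.24 (0.838 to 3.80) under IgG2a. Ctsw, encoding cathepsin W, had a median of 2.85 CPM (1.38 to 10.4) under anti-PD-1, against 2.05 (0.825 to 3.76) under IgG2a. These 3 overlapped between the groups, with log2 fold changes of 0.44 ± 0.39, 0.54 ± 0.33 and 0.66 ± 0.42 (SE), and anti-PD-1 tumours 1, 5 and 6 were among the highest for each. Gzmk, a granzyme of memory-like T cells, had few reads, with a median of 0.136 CPM (0.032 to 1.34) under anti-PD-1, against 0.226 CPM (0 to 0.462) under IgG2a, and no read in 2 tumours. Its estimate of 0.65 ± 0.84 (SE) turned to -0.11 without anti-PD-1 5, and its error was the widest of the 35. Serpinb9 had a median of 37.8 CPM (25.0 to 49.6) under anti-PD-1, against 40.2 CPM (30.5 to 67.0) under IgG2a. It varied least among tumours, with a coefficient of variation of 26.6% where the list's median was 59.4%, and its log2 fold change was -0.18 ± 0.18 (SE). The interval of -0.56 to 0.20 left room for neither a doubling nor a halving.

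Among genes of secreted and surface effectors, Ifng had the smallest p of the list. Ifng, encoding interferon gamma (chromosome 10, 118441046 to 118445892, plus strand), had 0.592, 1.89 and 4.65 CPM as lowest, median and highest under anti-PD-1, against 0.387, 1.15 and 1.97 CPM under IgG2a. Anti-PD-1 tumours 1, 6, 8 and 5 exceeded every IgG2a tumour, while anti-PD-1 tumours 2 and 4 lay below most of them, so the groups overlapped. The 8 anti-PD-1 tumours had a mean of 2.12 ± 1.51 CPM, against 1.15 ± 0.617 CPM in the 8 IgG2a tumours (SD), and 5 of 8 anti-PD-1 tumours lay above the IgG2a median. The log2 fold change was 0.89 ± 0.48 (SE, interval -0.12 to 1.90), with an unadjusted p of 0.0803 and an adjusted p of 0.437 by edgeR. Fasl, the death ligand, had a median of 0.830 CPM (0.352 to 2.51) under anti-PD-1, against 0.706 CPM (0.133 to 1.55) under IgG2a, and a log2 fold change of 0.36 ± 0.48 (SE). Xcl1, a chemokine that draws cross-presenting dendritic cells, had a median of 0.650 CPM (0.442 to 2.54) under anti-PD-1, against 0.504 CPM (0.236 to 2.23) under IgG2a. In each group 1 tumour, anti-PD-1 5 and IgG2a 1, stood far above the rest for Xcl1. Its log2 fold change was 0.18 ± 0.48 (SE), and without anti-PD-1 5 it was -0.29, while Fasl came to 0.00 without that tumour. Xcl1 overlaps a transcript on the opposite strand, Gm20743, and the libraries kept no strand. Ifng overlaps Gm49751 on its own strand.

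Of the transcription factors, Eomes is the T-box factor of NK cells and memory CD8 T cells, and Tbx21 encodes T-bet. Eomes (chromosome 9, 118478212 to 118486132, plus strand) had 0.464, 0.870 and 2.70 CPM under anti-PD-1, against 0.295, 0.536 and 1.53 CPM under IgG2a, as lowest, median and highest. Anti-PD-1 5 and IgG2a 1 were again the high ones, and 6 of 8 anti-PD-1 tumours lay above the IgG2a median, and the estimate was 0.69 ± 0.42 on the log2 scale (SE, edgeR adjusted p = 0.455). Tbx21 had 0.807, 1.42 and 4.36 CPM under anti-PD-1, against 0.943, 1.23 and 2.33 CPM under IgG2a. Anti-PD-1 tumours were both the highest and the lowest for Tbx21, and the log2 fold change was 0.41 ± 0.38 (SE, adjusted p = 0.602 by edgeR). Zfp683 reached at most 0.403 CPM under anti-PD-1, in tumour 6, and 0.188 CPM under IgG2a.

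**Figure D2:**
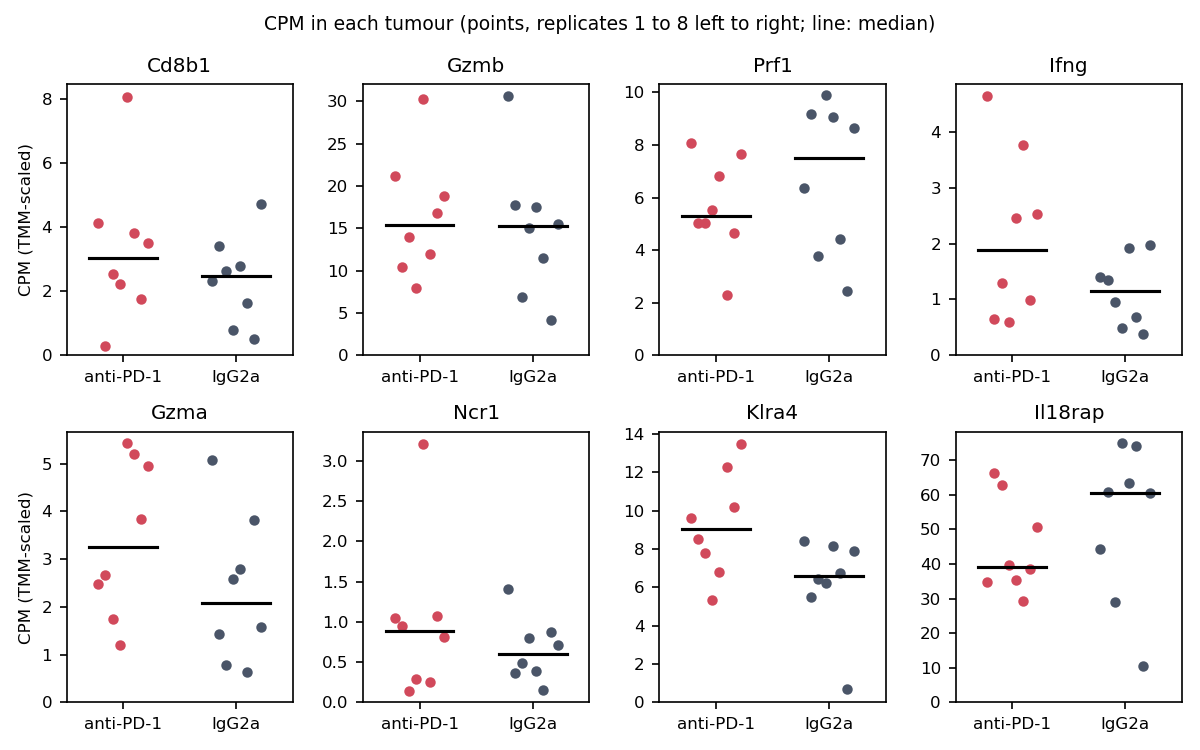
CPM (y axes from 0, scaled by TMM factors) of 8 genes in each of 8 anti-PD-1 tumours, left, and 8 IgG2a tumours, right; the line is the median, and points run from replicate 1 to 8. The groups overlap in every panel; a single anti-PD-1 tumour at 3.21 CPM tops Ncr1, and a single IgG2a tumour at 0.677 CPM lies under the rest for Klra4.

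The cytokine receptor genes had lower estimates, 3 of 3, with a median of -0.22. They encode Il12rb2, the signalling chain for interleukin-12, and the paired chains Il18r1 and Il18rap of the receptor for interleukin-18, both cytokines that induce interferon gamma. Il18rap had 29.4, 39.0 and 66.1 CPM as lowest, median and highest under anti-PD-1, against 10.4, 60.6 and 75.0 CPM under IgG2a. IgG2a 7 was the lowest of all tumours at 10.4 CPM, 5 IgG2a tumours were at 60.4 CPM or above, and 2 of 8 anti-PD-1 tumours lay above the IgG2a median. Its log2 fold change was -0.22 ± 0.31 (SE, adjusted p = 0.731 by edgeR). The adjusted p was 0.146 in limma-voom with quality weights, the smallest for any list member under any alternative, and Il18rap was the 1 member at an unadjusted p under 0.05 without the 3 tumours, where 15.8% of all genes were. Il18r1 had a median of 1.60 CPM (0.870 to 6.60) under anti-PD-1, against 2.47 CPM (0.634 to 4.79) under IgG2a, and its log2 fold change of -0.09 ± 0.46 (SE) turned to 0.27 without the 3 tumours. Il12rb2 had a median of 0.962 CPM (0.031 to 2.44) under anti-PD-1, against 1.30 CPM (0.209 to 2.55) under IgG2a, and its log2 fold change was -0.30 ± 0.61 (SE). Its reads were partly shared with other genes in 16 of 16 libraries, and it overlaps Serbp1 on the opposite strand.

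Among the receptors that T and NK cells share, 7 of 7 estimates were higher, with a median of 0.30 and a range of 0.12 to 0.95, and none passed. Klrk1, encoding the activating receptor NKG2D, had a median of 7.48 CPM (3.49 to 16.4) under anti-PD-1, against 6.75 CPM (4.13 to 13.7) under IgG2a. Klrd1, encoding CD94, had a median of 3.96 CPM (1.29 to 7.98) under anti-PD-1, against 2.36 CPM (1.37 to 5.80) under IgG2a. Its NKG2 partners were Klrc1, the inhibitory NKG2A, with a median of 3.92 CPM (1.95 to 11.5) under anti-PD-1, against 3.68 CPM (1.69 to 7.02) under IgG2a, and Klrc2, the activating NKG2C, with 0.843 CPM (0.0961 to 1.91) under anti-PD-1, against 0.357 CPM (0.0892 to 0.855) under IgG2a. Klrc2 had the largest estimate of the list, 0.95 ± 0.62 (SE), but Klrc1 matches it at 98.9% identity over 58.6% of the Klrc1 transcript, and the summed reads of both genes were not whole in 16 of 16 libraries, so their split is uncertain. The estimates were 0.17 ± 0.32 for Klrk1, 0.51 ± 0.41 for Klrd1 and 0.30 ± 0.40 for Klrc1 (SE). In all 4, anti-PD-1 5 was the highest tumour of all 16, and leaving it out turned Klrk1 to -0.03 and Klrc1 to -0.01.

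The other shared receptors were lower in level. Cd160, a receptor for the herpesvirus entry mediator, had a median of 0.790 CPM (0.385 to 1.55) under anti-PD-1, against 0.479 CPM (0.376 to 1.09) under IgG2a, with a log2 fold change of 0.55 ± 0.35 (SE). It lies opposite Pdzk1 on the genome, and its reads cannot be assigned to a strand. Klrg1, an inhibitory receptor of terminally differentiated cells that binds cadherins, had a median of 0.577 CPM (0.280 to 1.40) under anti-PD-1, against 0.632 CPM (0.134 to 1.27) under IgG2a. Crtam, an adhesion receptor of activated cytotoxic lymphocytes, had a median of 1.04 CPM (0.511 to 2.09) under anti-PD-1, against 0.706 CPM (0.354 to 1.62) under IgG2a. Their log2 fold changes were 0.12 ± 0.44 and 0.27 ± 0.38 (SE), and for Crtam anti-PD-1 5, the top tumour for so many others, was the lowest of its group.

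The NK lineage receptors had 8 higher and 2 lower estimates of 10, with a median of 0.33. Ncr1, encoding NKp46 (chromosome 7, 4337724 to 4345164, plus strand), had 0.140, 0.883 and 3.21 CPM as lowest, median and highest under anti-PD-1, against 0.152, 0.602 and 1.42 CPM under IgG2a. Anti-PD-1 5 alone exceeded IgG2a 1, and anti-PD-1 tumours 3, 6 and 4 were among the lowest, so the groups overlapped. Klrb1c, encoding NK1.1, had 0.448, 1.20 and 2.80 CPM under anti-PD-1, against 0.368, 0.951 and 2.67 CPM under IgG2a. Anti-PD-1 tumours 5 and 8 and IgG2a 1 had nearly equal high values for it. Klrb1c overlaps another gene on the same strand, Gm44511, and Klrb1b matches it at 88.25% identity over 55.97% of the Klrb1c transcript. The log2 fold changes were 0.58 ± 0.57 (SE, adjusted p = 0.620 by edgeR) for Ncr1 and 0.30 ± 0.47 (SE, adjusted p = 0.767 by edgeR) for Klrb1c, each with 5 of 8 anti-PD-1 tumours above the IgG2a median. Without anti-PD-1 5 they were 0.01 and 0.08.

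The Ly49 receptors bind class I molecules, some with activating and some with inhibitory effect. Klra4, encoding the activating Ly49D (chromosome 6, 130043731 to 130067271, minus strand), had 5.35, 9.07 and 13.5 CPM as lowest, median and highest under anti-PD-1, against 0.677, 6.59 and 8.43 CPM under IgG2a. In IgG2a 7 it had 42 reads where the next IgG2a tumour had 5.50 CPM, and 7 of 8 anti-PD-1 tumours lay above the IgG2a median. The log2 fold change was 0.56 ± 0.35 (SE, interval -0.17 to 1.29, adjusted p = 0.456 by edgeR), and without IgG2a 7 it was 0.39 (edgeR adjusted p = 0.558). Per length, Klra4 was at 8.56 TPM, while Klra7, the inhibitory Ly49G, averaged 0.998 TPM, Klra8, the activating Ly49H, 0.377 TPM, and Klra9, the inhibitory Ly49I, 0.253 TPM. Klra4 reads were whole numbers in all 16 libraries, and its closest copy, Gm15854, matches at 89.9% identity over 65.0% of its length. Klra7, Klra8 and Klra9 have copies at 96.6 to 97.0% identity over 59.5 to 73.3% of their length. The summed reads of Klra7 and Klra9 were likewise whole in all 16 libraries, while those of Klra8 were divided in 6. With such close copies the levels of Klra7, Klra8 and Klra9 are uncertain.

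Klra7 had a median of 0.776 CPM (0.192 to 1.60) under anti-PD-1, against 0.543 CPM (0.219 to 1.24) under IgG2a. For Klra8 the median was 0.367 CPM (0.112 to 0.759) under anti-PD-1, against 0.239 CPM (0 to 0.781) under IgG2a, and for Klra9 it was 0.196 CPM (0.0801 to 0.341) under anti-PD-1, against 0.185 CPM (0 to 0.722) under IgG2a. Their log2 fold changes were 0.38 ± 0.46, 0.35 ± 0.61 and -0.14 ± 0.72 (SE), and the last turned to 0.43 without IgG2a 1, its highest tumour. Klre1 and Klri2 encode lectin-like receptors that pair with each other. Klre1 had a median of 1.26 CPM (0.356 to 2.16) under anti-PD-1, against 0.932 CPM (0.580 to 1.72) under IgG2a, and Klri2 had 1.39 CPM (0.854 to 2.04) under anti-PD-1, against 1.08 CPM (0.304 to 1.62) under IgG2a. Klri2 was above the IgG2a median in 6 of 8 anti-PD-1 tumours, with a log2 fold change of 0.49 ± 0.31 (SE), while that of Klre1 was 0.24 ± 0.36 (SE). Sh2d1b1, encoding the signalling adaptor EAT-2, had a median of 6.09 CPM (1.93 to 8.13) under anti-PD-1, against 4.94 CPM (2.67 to 6.82) under IgG2a, with a log2 fold change of 0.22 ± 0.32 (SE). The summed reads of Sh2d1b1 were not whole in 15 libraries, so part of them was divided with other genes and its level is uncertain. Itga2, the integrin CD49b that NK cells share with platelets and epithelial cells, had a median of 0.287 CPM (0 to 0.992) under anti-PD-1, against 0.409 CPM (0.233 to 1.71) under IgG2a. Its estimate of -0.54 ± 0.65 (SE) came to 0.01 without the 3 tumours, of which IgG2a 7 held its highest value.

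**Figure D3:**
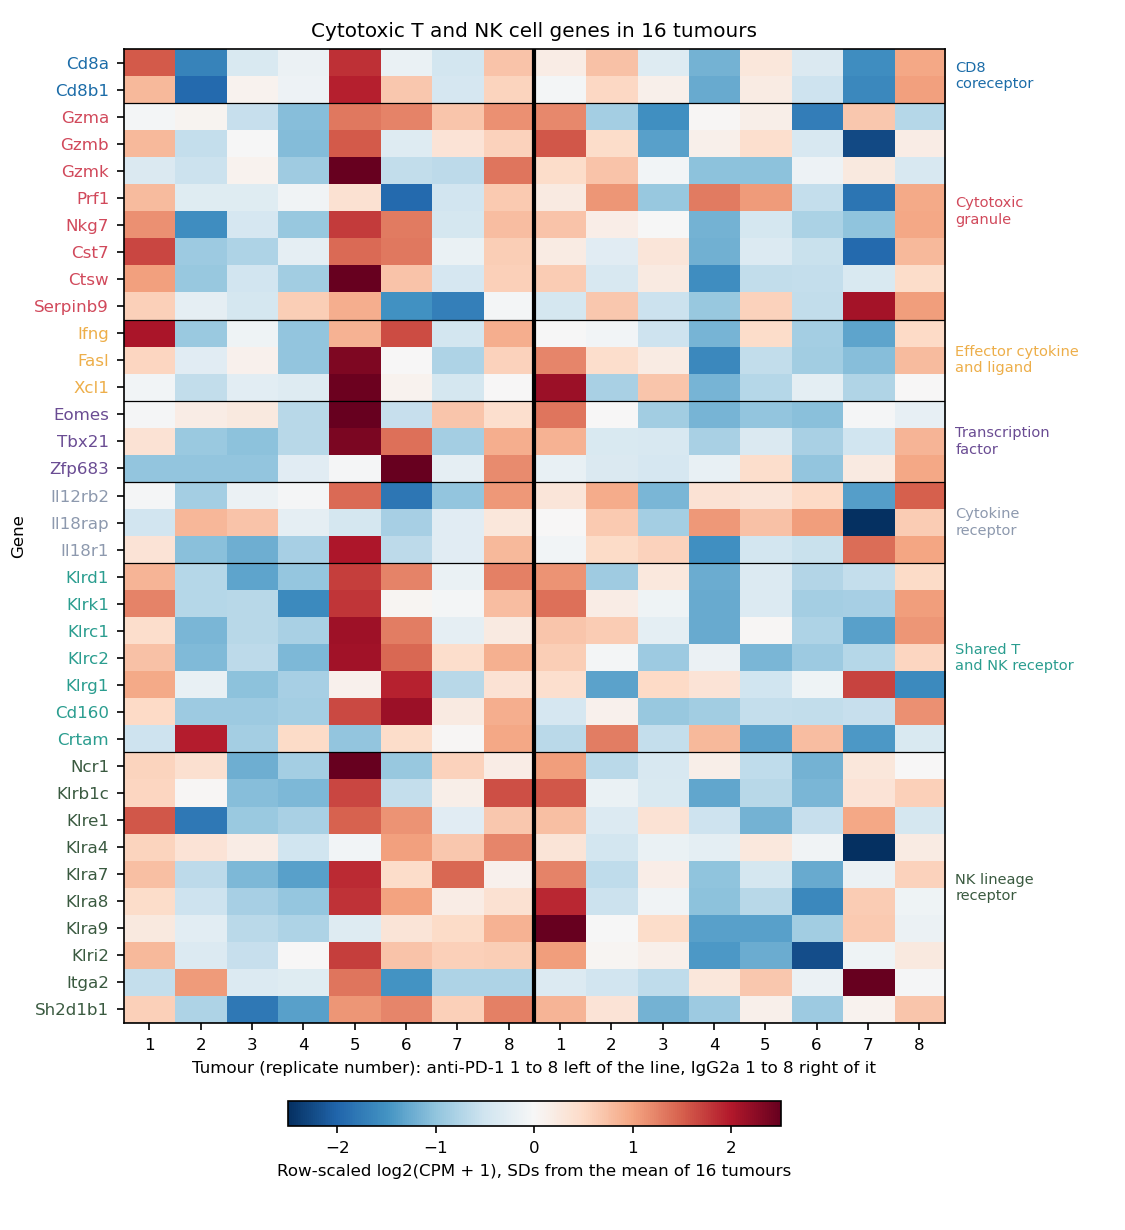
Log2(CPM + 1) of the 36 genes (rows, by group) in 16 tumours (columns, anti-PD-1 left of the line, IgG2a right of it), as SDs from the gene's mean over 16 tumours. Anti-PD-1 5 is red through most rows, with exceptions that include Il18rap, Crtam, Klra4, Klra9 and Zfp683. IgG2a 7 is the darkest blue for Klra4 at 0.677 CPM and for Il18rap at 10.4 CPM.

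Across the 16 tumours most of the list varied together. Spearman's rho of log2(TPM + 1) was above 0 for 533 of 630 gene pairs, with a median of 0.41 and a range of -0.60 to 0.96. Both values of a pair come from the same library and share its depth and composition, and the correlations are given as a description of these 16 tumours. Within the CD8 pair rho was 0.96 (0.95 in anti-PD-1 tumours, 0.98 in IgG2a tumours). Among the 10 NK lineage receptors the median over 45 pairs was 0.57 (-0.34 to 0.89). Between the 2 CD8 genes and those 10 it was 0.33 over 20 pairs (-0.13 to 0.60). The median within the other groups was 0.70 for effector genes and 0.37 for cytokine receptors. It was 0.30 for granule genes, 0.29 for shared receptors and 0.28 for transcription factors. Cd8b1 had a rho of 0.04 with Ncr1 and 0.60 with Sh2d1b1.

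A CD8 level was the mean log2(TPM + 1) of Cd8a and Cd8b1, and an NK level the same mean over the 10 genes grouped as NK lineage receptors. Among these 10, Klra4 (8.56 TPM) and Sh2d1b1 (2.43 TPM) had the highest mean TPM. The CD8 and NK levels had a rho of 0.38 and a Pearson r of 0.53. Within anti-PD-1 tumours rho was 0.40, within IgG2a tumours 0.43, and without the 3 tumours set apart 0.46. Without the 2 tumours farthest in CD8 level, anti-PD-1 5 and anti-PD-1 2, r was 0.41. Anti-PD-1 5 ranked highest of 16 on both levels. Other tumours were split: anti-PD-1 2 was the lowest in CD8 level and ranked 10 of 16 in NK level, counted from the lowest, and anti-PD-1 7 ranked 4 and 13. Anti-PD-1 tumours 3 and 4 ranked 9 and 8 in CD8 level and were the 2 lowest in NK level, and IgG2a 1 ranked 10 in CD8 level and 15 in NK level. Each group spanned both levels, so neither treatment had a CD8 or NK range of its own.

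**Figure D4:**
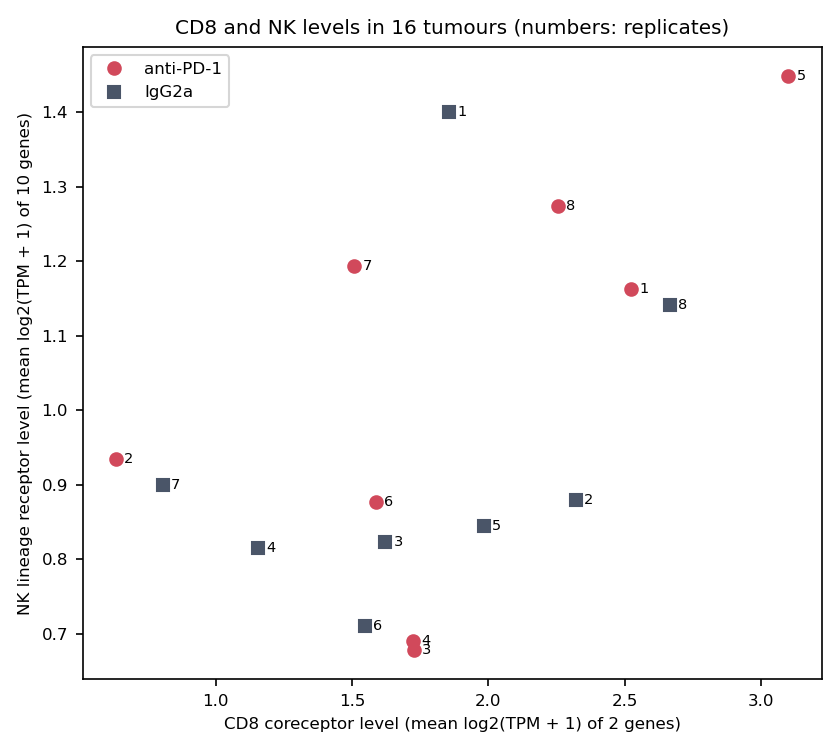
NK lineage receptor level (y axis) against CD8 coreceptor level (x axis), each a mean of log2(TPM + 1), in 8 anti-PD-1 tumours (circles) and 8 IgG2a tumours (squares), numbered by replicate. Both groups spread over the plane, with a rho of 0.38 over 16 tumours and anti-PD-1 5 at the top right.

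The remaining genes were placed by their rho with each level, a gene being left out of its own level. Klrc1 (0.86 with the CD8 level, 0.61 with the NK level), Nkg7 (0.85 and 0.63), Ifng (0.80 and 0.55) and Fasl (0.80 and 0.63) had higher values with the CD8 level. Prf1 (0.55 and 0.20), Il12rb2 (0.65 and 0.27) and Serpinb9 (0.45 and 0.27) did too over all 16 tumours, at lower values. For Serpinb9 the order was reversed within IgG2a tumours, at 0.26 with the CD8 level and 0.64 with the NK level, where anti-PD-1 tumours had 0.67 and 0.36. Gzma (0.04 with the CD8 level, 0.76 with the NK level), Eomes (0.35 and 0.76), Klrd1 (0.53 and 0.82) and Klrk1 (0.65 and 0.80) had higher values with the NK level. Klrd1 and Klrk1 each also had 0.83 with the mean level of 10 general T cell markers. Il18r1 (0.54 and 0.62), Klrc2 (0.46 and 0.56) and Gzmk (0.38 and 0.46) were somewhat higher with the NK level, and Xcl1 (0.57 and 0.43) with the CD8 level. The difference for Gzma was present in both groups, at 0.24 and 0.88 in anti-PD-1 tumours and -0.24 and 0.57 in IgG2a tumours. Gzmb (0.74 and 0.66), Tbx21 (0.71 and 0.63), Cst7 (0.74 and 0.64), Ctsw (0.71 and 0.70) and Cd160 (0.65 and 0.73) had similar values with both. That held over all 16 tumours, but the groups differed in which level had the higher value for Gzmb, Cst7, Ctsw and Cd160. Cd160 had 0.62 and 0.83 in anti-PD-1 tumours, and 0.76 and 0.45 in IgG2a tumours. For Ctsw the values were 0.81 and 0.69, and 0.55 and 0.71. Such a reversal between the groups was seen for 12 genes of the list, also including Serpinb9 and Klrc2, and was not tested. The granzyme genes Gzma and Gzmb had a rho of 0.43 with each other, and the T-box genes Eomes and Tbx21 0.28, at 0.19 in anti-PD-1 tumours and 0.86 in IgG2a tumours.

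A further set had low or negative values with both levels over the 16 tumours. Il18rap had a rho of -0.06 with the CD8 level and -0.24 with the NK level, and -0.35 with Il18r1, the chain it pairs with. It had -0.85 with the fibroblast marker level and -0.66 with the epithelial marker level. Crtam (-0.15 and -0.01), Itga2 (-0.10 and -0.06), Klra4 (0.13 and 0.32), Klrg1 (-0.24 and 0.26) and the sparsely detected Zfp683 (0.20 and 0.33) were the others. Klra4 differed in this from the Ly49 genes Klra7 (0.37 and 0.87) and Klra8 (0.29 and 0.84), which had a rho of 0.86 with each other but 0.42 and 0.25 with Klra4. The fourth Ly49 gene, Klra9, which had few reads, had 0.08 and 0.63. Its rho with Klra4 was 0.27, at 0.95 in anti-PD-1 tumours and -0.12 in IgG2a tumours. With the CD8 level, 8 of the 36 genes had rho of opposite sign in the groups: Gzma, Il18rap, Ncr1, Itga2, Klrg1 (0.33 in anti-PD-1 tumours and -0.90 in IgG2a tumours), Klra4 (-0.29 and 0.62), Crtam (-0.55 and 0.26) and Klre1 (0.81 and -0.31). With 8 tumours in each group these differences were not tested.

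**Figure D5:**
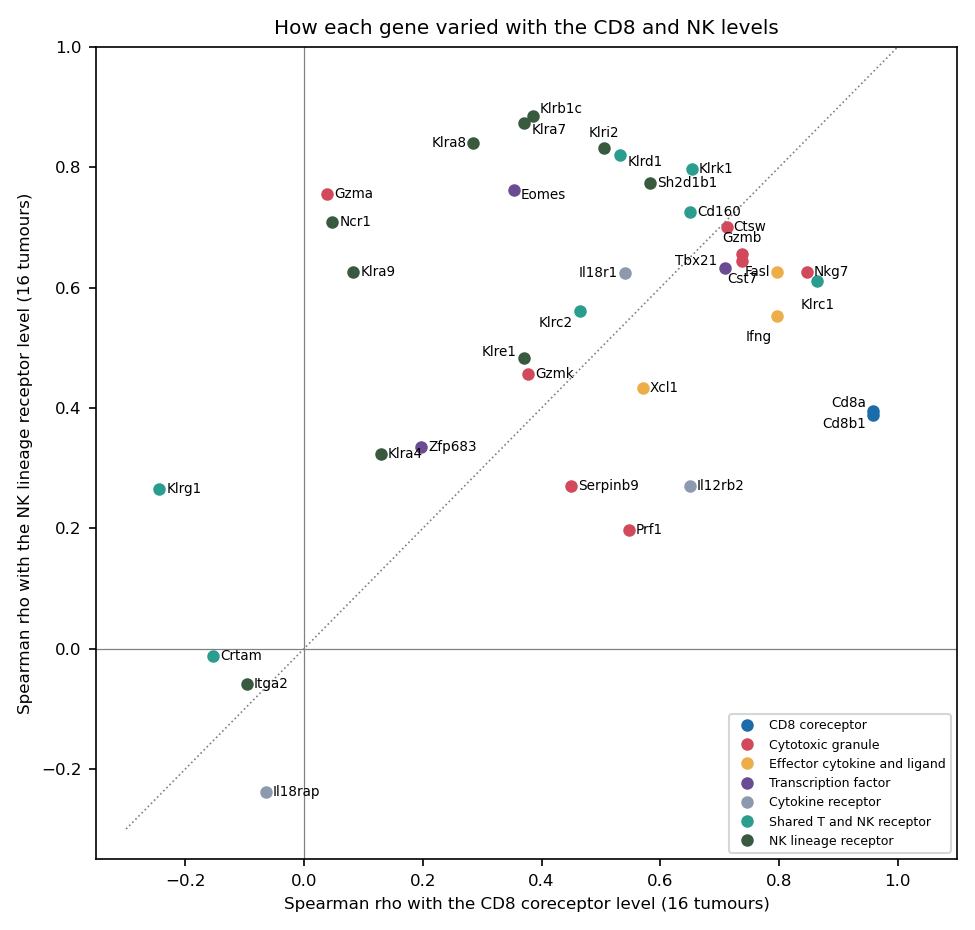
Spearman's rho of each of the 36 genes with the NK lineage receptor level (y axis) against its rho with the CD8 coreceptor level (x axis), over 16 tumours; a gene is left out of its own level, and the dotted line marks equal values. Gzma and Ncr1 lie high on the left, Cd8a and Cd8b1 far right, and Il18rap, Crtam and Itga2 near or below 0 on both axes.

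Of 11993 other protein-coding genes, those most like the CD8 level in rank were Pdcd1 (rho 0.90), which encodes PD-1 itself, Cd3e (0.88), a chain of the T cell receptor complex, Serpina3g (0.86), Socs1 (0.86), a suppressor of cytokine signalling, and Haus8 (0.84), a subunit of the augmin complex of the spindle. Those most like the NK level were Gpr65 (0.91), a proton-sensing receptor, Sept1 (0.87), a septin, Lpcat2 (0.87), an enzyme of phospholipid synthesis, Il10ra (0.87), the interleukin-10 receptor chain, and Gdf3 (0.86), a ligand of the TGF-beta family. Chosen after their values were seen, the genes most like Klra4 were Zfp988 (0.94) and Plk4 (0.84), a centriole kinase, and those most like Il18rap were Kdm8 (0.99), Wipi1 (0.99) and Adamts8 (0.98). The highest of 11993 correlations over 16 tumours is high in any such search.

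The CD8 level had a rho of 0.85 with the level of 10 general T cell markers, and the NK level had 0.66 with it. With the macrophage marker level the NK level had a rho of 0.71 but a Pearson r of 0.42. Without anti-PD-1 5 and IgG2a 1, the 2 tumours farthest in NK level, r was 0.38. That rho was 0.81 in anti-PD-1 tumours, 0.79 in IgG2a tumours and 0.77 without the 3 tumours set apart. T cell markers summed to 21.6 to 127 TPM under anti-PD-1 and 18.6 to 78.0 TPM under IgG2a, with anti-PD-1 5 highest and no marker at 0 in 8 or more tumours, and 7 of 10 had a higher estimate (median 0.15). Markers of gamma delta T cells, which also carry granzymes and NKG2D, summed to 0.858 to 7.42 TPM under anti-PD-1 and 0.621 to 3.54 TPM under IgG2a, with 4 of 4 estimates higher (median 0.80). Among them Trdc, the constant segment of the delta chain, had a mean of 1.57 ± 0.795 CPM in anti-PD-1 tumours, against 0.750 ± 0.529 CPM in IgG2a tumours (SD, n = 8 in each group), and its estimate was 1.06 ± 0.48 (log2 fold change and SE; edgeR adjusted p = 0.434). Mast cell and basophil markers summed to 12.2 to 157 TPM under anti-PD-1 and 40.5 to 108 TPM under IgG2a, with 5 of 5 tested estimates higher (median 0.56), and neutrophil markers had 5 of 5 higher (median 0.76). Helper T cell markers had 2 of 2 tested lower (median -0.17), with Cd40lg at 0 in 8 or more tumours, and 6 of 7 macrophage markers were lower (median -0.53), turning to 6 of 7 higher (median 0.23) without the 3 tumours. Without them the median was 0.03 for T cell markers, with 6 of 10 higher, 0.25 for mast cell and basophil markers, -0.08 for helper T cell markers, with 1 of 2 higher, 0.98 for gamma delta T cell markers and 0.83 for neutrophil markers. No marker passed, and the part of these cells in the list's values was not tested.

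Among genes that work with the list, of 17 ligands and receptors of list members 12 were tested and 0 passed, with 5 estimates higher and a median of -0.06. The 3 with the smallest p were Tnfrsf14, the herpesvirus entry mediator bound by CD160, at -0.32 ± 0.19 (log2 fold change and SE), Ulbp1, a stress ligand of NKG2D, at -0.56 ± 0.43, and Ifngr1, a chain of the interferon gamma receptor, at -0.36 ± 0.32. Raet1a, Raet1b and Raet1c, further ligands of NKG2D, were not analysed here. Of 15 genes of granule loading and release and of other granzymes, 0 passed and 9 were higher (median 0.12). Among them Srgn, the proteoglycan that packs granzymes, was at 0.60 ± 0.35, Gzmm at -1.12 ± 0.70 and Rab27a, which docks granules, at -0.38 ± 0.30. Single tumours stood high for 2 of these: anti-PD-1 1 at 303 CPM for Srgn and IgG2a 3 at 1.02 CPM for Gzmm. The next highest had 151 CPM for Srgn and 0.387 CPM for Gzmm, which had no read in 2 tumours.

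Of 13 receptor adaptors and signalling genes 0 passed and 8 were higher (median 0.15). Their 3 smallest p-values belonged to Cd226, an activating receptor, with a log2 fold change of -0.77 ± 0.52 (SE), to Il2rg, the common cytokine receptor chain, at 0.15 ± 0.12, and to Hcst, the DAP10 adaptor of NKG2D, at 0.62 ± 0.54. Of 9 cytokines that induce cytotoxic cells, or their inhibitors, 6 were tested, 0 passed and 5 were higher (median 0.15). Il27 was at 0.44 ± 0.30, Il18bp, the soluble inhibitor of interleukin-18, at 0.34 ± 0.26, and Il12b, a subunit of interleukin-12, at -0.55 ± 0.52. The cytokine genes Il2, Il21 and Il12a did not pass the filter on low counts.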

How the data were processed

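Poly(A)-enriched RNA of 16 tumours was sequenced in non-directional libraries from samples with an RNA integrity number above 5, per the labels' protocols. Per the file headers, each deposited table lists transcripts with their length, an effective length (both other values), the authors' TPM and an estimated count, not always a whole number. The submitters' processing notes name GRCm38 as build, and edgeR and limma as tools. Which quantifier and annotation were used is not given in the sources used here. Of the transcripts, 25.4 to 38.5% had fractional values, meaning that reads matching several transcripts were divided among them.

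Transcripts were matched to GENCODE vM21 (114200 of 115088, in 47311 genes), and 0.167 to 0.217% of reads had no match. Estimated counts were summed per gene, rounded, filtered with filterByExpr (minimum count 10, total 15), scaled by TMM and tested with edgeR's robust quasi-likelihood method (edgeR 4.0.16, R 4.3.3) over 16 tumours, with Benjamini-Hochberg adjustment over 16154 genes and a threshold of 0.05. CPM are TMM-scaled. Fold changes are log2 with SE and 95% intervals, and the biological coefficient of variation was 0.536. The test was checked on simulated data. Levels between genes are in TPM, and co-variation used log2(TPM + 1). Copies were sought with blastn 2.17.0, and overlaps and coordinates come from the annotation. Besides the overlaps given with the genes, Eomes (Gm33460), Ctsw (Fibp) and Gzmk (Esm1) overlap genes on the opposite strand. Named genes of each pathway list were the 3 with the smallest p, and genes most like a level the 5 with the highest rho among protein-coding genes whose mean log2 CPM was 0 or more. Alternatives were other scaling, filters and a covariate for animal number range, DESeq2 1.42.0, limma-voom (limma 3.58.1), and leaving out tumours. The members and lists were chosen with earlier results of these data known.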

Additional observations from a re-analysis of the deposited data

Results flagged for a closer look

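Of 72 sets of 8 tumours (each gene in each group), 12 held a tumour whose gap to its nearest neighbour exceeded the 95% limit of Dixon's outlier test for its share of the range. Chance flags about 1 in 20 such sets only where values are normally distributed, which was not checked for these CPM. Genes that vary together are also not separate, so 12 of 72 cannot be read as more than chance. Anti-PD-1 5 was far above the rest of its group for Ctsw at 10.4 CPM (next 4.65), Fasl at 2.51 (next 1.12), Xcl1 at 2.54 (next 0.775), Eomes at 2.70 (next 1.13), Il18r1 at 6.6 (next 3.50) and Ncr1 at 3.21 CPM (next 1.07). IgG2a 1 was far above its group for Xcl1 at 2.22 CPM (next 1.11), Eomes at 1.53 (next 0.770) and Klra9 at 0.722 CPM (next 0.306). IgG2a 8 was the high tumour for Cd160, at 1.09 CPM (next 0.700). IgG2a 7, which held the most adipocyte and erythroid marker RNA, was far below its group for Klra4 at 0.677 CPM (next 5.50) and far above it for Itga2 at 1.71 CPM (next 0.698).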

How the results depend on the processing

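Members called stayed at 0 under all 26 alternatives, with 22 to 29 higher estimates. Genes called were 0 under each except DESeq2, with 4 genes, none on the list. Of the list, 23 genes kept their sign in every alternative that gave them a value. Klra8, 1 of the 23, had none with a minimum count of 30. At an unadjusted p under 0.05, DESeq2 and limma-voom had 0 members, and with 1 tumour left out 5 settings had 1 each: Eomes without IgG2a 1, Ifng without anti-PD-1 2 or 4, Klra4 without IgG2a 7 and Cd160 without IgG2a 8. That is 2.86% of the members, where 7.13 to 14.1% of all genes were there. With quality weights in limma-voom, 5 members (14.3%: Gzma, Il18rap, Eomes, Klri2 and Klra4) had an unadjusted p under 0.05, where 21.2% of all genes did, and log2 fold changes turned to -0.067 for Cd8a, -0.112 for Cd8b1, -0.0283 for Gzmb, -0.123 for Klrc1, 0.0134 for Il18r1 and 1.49 for Klra9. Klra9 was 0.88 in limma-voom without weights and 0.12 with the animal number range as a term. Without the 3 tumours set apart, Gzmb was -0.0839, Il18r1 0.27 and Itga2 0.0125. Leaving out 1 tumour at a time gave -0.0424 to 0.38 for Gzmb, -0.11 to 0.89 for Gzmk, -0.00384 to 0.59 for Fasl, -0.29 to 0.65 for Xcl1, -0.0292 to 0.34 for Klrk1, -0.0088 to 0.47 for Klrc1, -0.51 to 0.10 for Il18r1, -0.14 to 0.37 for Klrg1 and -0.33 to 0.43 for Klra9. The cause was not tested. The rho between CD8 and NK levels ranged from 0.25 to 0.50 with 1 tumour left out. No paired analysis was possible because replicate numbers follow accession order and each tumour is a separate animal. Genes near 0 CPM (Gzmk, Klra8, Klra9, Itga2 and Zfp683) rest on few reads.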
